A study of Mus musculus with 6 samples.

Results

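The chromatin regions described here belong to 10 genes of the epithelial program: the transcription factor genes *Grhl1*, *Grhl2*, *Grhl3*, *Ovol1* and *Ovol2*, and the epithelial genes *Epcam*, *Cdh1*, *Esrp1*, *Krt8* and *Krt18*. A region is a distinct interval of the conservative ATAC-seq peak list of a genotype, which keeps peaks that recurred between cultures. It was assigned to a gene when its strongest summit lay at most 50 kb from a transcription start site (TSS) of that gene and no TSS of another protein-coding gene was closer. This gave 70 of the 190365 regions listed: 26 of 82885 in parent NSPCs and 44 of 107480 in ΔSRR2–18 NSPCs. The deposited data compared the accessibility of chromatin in neural stem/progenitor cells (NSPCs) that were derived from mouse embryonic stem cells (ESCs) and either kept or lost SRR2–18, an enhancer cluster downstream of *Sox2*. All 6 cultures were 129S1/Cast F1 hybrids with a Sox2-mCherry reporter on the *M. musculus* allele, grown in N2B27 with EGF and bFGF on poly-d-lysine and laminin. The 3 parent cultures came from clone 5B, which has no deletion, and the 3 ΔSRR2–18 cultures came from clone 47D, in which Cas9 had removed SRR2–18 from both alleles at the ESC stage. Each list pools the 3 cultures of its genotype, which leaves no spread between replicates and allows no test of a difference between genotypes. With 1 clone per genotype, the deletion and the clone cannot be told apart.

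Grainyhead-like factors (GRHL1, GRHL2 and GRHL3) are transcription factors of surface ectoderm and other epithelia, where GRHL2 binds enhancers of adhesion genes such as *Cdh1* and *Epcam*. They act with the OVOL zinc finger repressors and the splicing regulator ESRP1 to keep cells epithelial, and the repressors ZEB and SNAI, which bind E-boxes, work in the opposite direction. Neural progenitors lose E-cadherin and most of these genes when the neural tube forms, and AP-1 (FOS and JUN dimers) is a factor common at enhancers of adherent and epithelial cells.

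AP-1 consensus sites lay near the summit of 43.3% of the member regions found in the ΔSRR2–18 list alone, a share close to the 41.6% of all regions of that class, and other motifs recurred there too. For each gene with such a region, the one with the highest fold enrichment is shown first, followed by the *Krt8* region nearest to the *Krt8* TSS, a *Grhl3* region present in both lists, and the E-boxes at the *Cdh1* TSS. All are on the forward strand of GRCm38.p6 (mm10), with the AP-1 consensus TGACTCA or its reverse complement in capitals, except in the *Cdh1* TSS pair, where capitals mark the ZEB/SNAI E-box CAGGTG or its reverse complement.
Cdh1, 11528 bp downstream of the TSS (ΔSRR2–18-only), chr8:106614865-106614905: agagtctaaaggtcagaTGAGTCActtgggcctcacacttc
Esrp1, 36964 bp upstream of the TSS (ΔSRR2–18-only), chr4:11423754-11423794: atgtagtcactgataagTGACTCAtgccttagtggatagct
Grhl2, 11488 bp downstream of the TSS (ΔSRR2–18-only), chr15:37244505-37244565: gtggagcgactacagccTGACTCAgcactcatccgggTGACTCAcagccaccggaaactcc
Grhl3, 16923 bp downstream of the TSS (ΔSRR2–18-only), chr4:135556723-135556763: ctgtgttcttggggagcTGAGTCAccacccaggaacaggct
Krt18, 17693 bp downstream of the TSS (ΔSRR2–18-only), chr15:102045767-102045807: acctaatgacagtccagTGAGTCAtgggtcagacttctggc
Krt8, 11783 bp upstream of the TSS (ΔSRR2–18-only), chr15:102016296-102016372: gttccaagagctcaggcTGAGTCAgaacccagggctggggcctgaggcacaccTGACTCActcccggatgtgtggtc
Ovol1, 7366 bp downstream of the TSS (ΔSRR2–18-only), chr19:5553291-5553331: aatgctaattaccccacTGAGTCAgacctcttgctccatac
Krt8, 1014 bp upstream of the TSS (ΔSRR2–18-only), chr15:102005414-102005494: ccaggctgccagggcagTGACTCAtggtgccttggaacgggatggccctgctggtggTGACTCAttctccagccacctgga
Grhl3, 6386 bp downstream of the TSS (both lists), chr4:135567235-135567275: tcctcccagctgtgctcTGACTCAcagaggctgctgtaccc
Cdh1, 316 bp downstream of the TSS (both lists, E-box near the parent summit), chr8:106603728-106603767: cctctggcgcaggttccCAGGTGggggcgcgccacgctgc
Cdh1, 56 bp downstream of the TSS (both lists, E-box near the ΔSRR2–18 summit), chr8:106603321-106603360: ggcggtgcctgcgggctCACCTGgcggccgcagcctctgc

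Depth differed between the lists. The lowest local background of a peak, which the peak caller sets no lower than the genome mean, amounted to 38.8 reads in parent NSPCs and 19.7 in ΔSRR2–18 NSPCs, which puts the parent depth at 1.98 times the other. Reads at a summit are therefore given beside their multiple of that background, called the level, and beside the position of the region in its own list (top percent by summit reads). The ΔSRR2–18 list was nevertheless the longer of the lists, with narrower regions (median 586 bp against 685 bp). All 8 neural stem/progenitor markers examined, *Sox2* and *Nes* among them, had a region within 1 kb of a TSS in both lists. The TSS level of each was lower in ΔSRR2–18 NSPCs, by most at *Hes5* (158 to 21.0) and least at *Vim* (105 to 102, though higher in its list by reads). *Sox2*, the gene next to the deletion, had 9 regions in parent and 4 in ΔSRR2–18 NSPCs. The deleted interval lies within 50 kb of *Sox2*, and no region could be found in the removed DNA, so these counts are not comparable. Markers of other cell types with a region at the TSS numbered 1 of 4 in each list for pluripotent cells, 2 and 3 of 4 for neurons, 3 and 2 of 3 for mesenchyme, and 2 and 3 of 3 for endoderm (parent and ΔSRR2–18, respectively), and *Pou5f1* had no region in either list. A share of cells in another state cannot be told apart here from a change within each cell.

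Around the 10 genes, regions found in the ΔSRR2–18 list alone outnumbered those found in the parent list alone. Of the 44 ΔSRR2–18 regions, 30 (68.2%) overlapped no parent region by 1 bp or more, and of the 26 parent regions, 12 (46.2%) overlapped no ΔSRR2–18 region. Among all regions the shares were 63.1% and 52.3%, and among regions within 50 kb of a protein-coding TSS they were 53.0% and 45.0%. The parent-only share of the members lay between its backgrounds. The ΔSRR2–18-only share was above both of its own, though nearer to the 63.1% of all regions. With only 44 and 26 member regions, these gaps were not tested. Within 10 kb of the TSS, 13 of the 19 member regions in ΔSRR2–18 NSPCs were absent from the parent list (68.4%, against 38.6% over all genes). The gap was smaller with a limit of 100 kb (66.7% against 56.8%) and for regions over 1 kb from any TSS (73.0% against 65.2%). Parent-only shares were 40.0% against 30.8% within 10 kb and 54.3% against 48.3% within 100 kb. Over 1 kb from any TSS they were 57.1% against 57.8%. Each of the 10 genes had at least 1 region in the ΔSRR2–18 list, and *Ovol1* and *Krt18* had none in the parent list. *Grhl2*, *Ovol1*, *Epcam*, *Cdh1*, *Esrp1*, *Krt8* and *Krt18* had more ΔSRR2–18-only than parent-only regions, 7 of 10 genes against 36.3% of protein-coding genes. *Grhl1* was the 1 member with the opposite balance, which 21.9% of protein-coding genes showed, and *Grhl3* and *Ovol2* had equal numbers. Both percentages are of 21924 genes, 4281 of which had no region assigned in either list. Such genes could show neither balance, while all 10 members had regions, so the percentages understate the background for genes with regions.

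**Figure D1:**
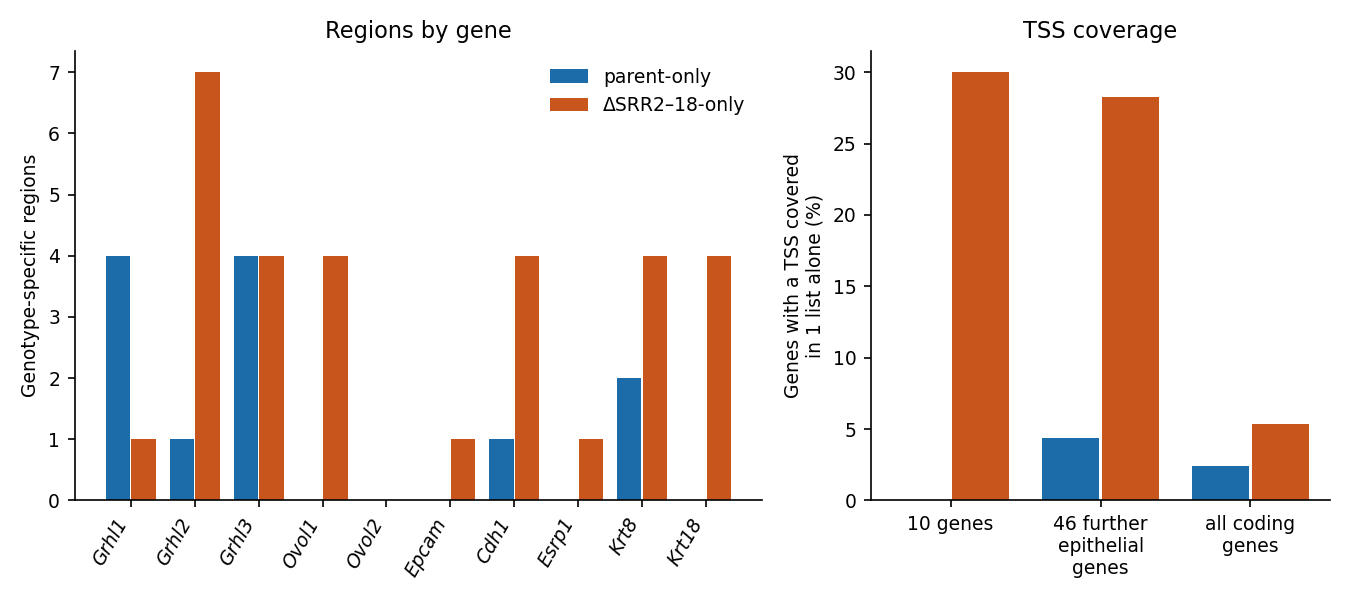
Left, number of regions found in the parent list alone (blue) or the ΔSRR2–18 list alone (orange) for each of the 10 genes, with *Grhl2* at 1 and 7 and *Grhl1* at 4 and 1. Right, percentage of genes with a TSS base covered by a region in 1 list alone, for the 10 genes, 46 further epithelial genes and all 21924 protein-coding genes; the orange bars stand at 30.0%, 28.3% and 5.33%. Genes covered in both lists, which are not drawn, were 40.0%, 26.1% and 56.0%, respectively.

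The *Grhl* genes did not behave alike. *Grhl2* (chr15:37233036-37363569, plus strand) had 2 parent regions, both over 30 kb upstream of its TSS, and 8 ΔSRR2–18 regions, 7 of them without a parent counterpart. A region of 1114 bp with its summit 442 bp upstream of the *Grhl2* TSS, in a noncoding exon of *Gm16136*, reached a fold enrichment of 14.8 over local background with 390 summit reads in ΔSRR2–18 NSPCs, and nothing overlapped it in either parent list. The *Grhl2* region with the highest fold enrichment lay in an intron 11488 bp downstream of the TSS, at 29.0 with 599 reads (top 0.530% of the ΔSRR2–18 list by fold and top 30.1% by reads). It holds the pair of AP-1 sites printed above, the nearer of them 1 bp from the summit. A second intronic region, 22677 bp downstream, had a fold enrichment of 25.3 (634 reads, top 2.71% by fold and top 28.2% by reads) and no AP-1 consensus within 100 bp of its summit. The only *Grhl2* region in both lists was 30560 bp upstream, where the level was 17.7 in parent and 30.4 in ΔSRR2–18 NSPCs. The 1 parent-only region, 46739 bp upstream, had a fold enrichment of 12.0.

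*Grhl1* (chr12:24572283-24617391, plus strand) was the most accessible of the 10 genes in parent NSPCs. Its TSS region carried 7305 summit reads there, a level of 188 (top 0.649% by reads), and 2337 reads in ΔSRR2–18 NSPCs, a level of 119 (top 2.08%), while its fold enrichment was alike in the lists (21.6 and 22.7). Among 8 parent regions, 4 were absent from the ΔSRR2–18 list. The strongest of these was in a coding exon (fold enrichment 17.1, 1407 reads), 4186 bp downstream of the second of 2 *Grhl1* TSS. A pair lay in introns of the neighbouring gene *Taf1b*, 34177 and 35227 bp upstream of the first TSS (fold enrichments 7.03 and 10.9). The weakest was intronic (5.25, 208 reads). The sole ΔSRR2–18-only region of *Grhl1*, 6781 bp upstream, was among the weakest of its list, with 81 reads and a fold enrichment of 3.97 (top 99.9% by reads). On chromosome 12 as a whole the balance was the other way, with 67.3% of ΔSRR2–18 and 54.1% of parent regions specific to their list.

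*Grhl3* (chr4:135541888-135573630, minus strand), a member of the family with roles in the epidermal barrier and neural tube closure, had 6 regions in each list, and 4 of the 6 were specific in each. At its TSS the level was 20.4 in parent and 42.5 in ΔSRR2–18 NSPCs. The largest ratio between genotypes at any shared locus of the 10 genes was in the *Grhl3* intron 6404 bp downstream of the TSS. Its parent region was weak, with 238 reads (level 6.13, fold enrichment 3.11, top 88.4% by reads). The overlapping ΔSRR2–18 region had 1409 reads (level 71.7, fold enrichment 15.0, top 8.38%), a ratio of levels of 11.7, and the AP-1 site printed above lies 11 bp from its summit. The parent region was 382 bp wide and the ΔSRR2–18 region 1178 bp, so they did not meet a 50% reciprocal overlap. By fold enrichment the strongest parent-only region of any member was at *Grhl3*, with values of 18.3 at 33353 bp downstream (1027 reads) and 16.3 at 22528 bp upstream (647 reads), and an intronic parent-only region 3380 bp downstream had 938 reads. The other parent-only regions of *Grhl3* had fold enrichments of 7.43 and 7.66, and its ΔSRR2–18-only regions lay between 3.28 and 9.44.

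**Figure D2:**
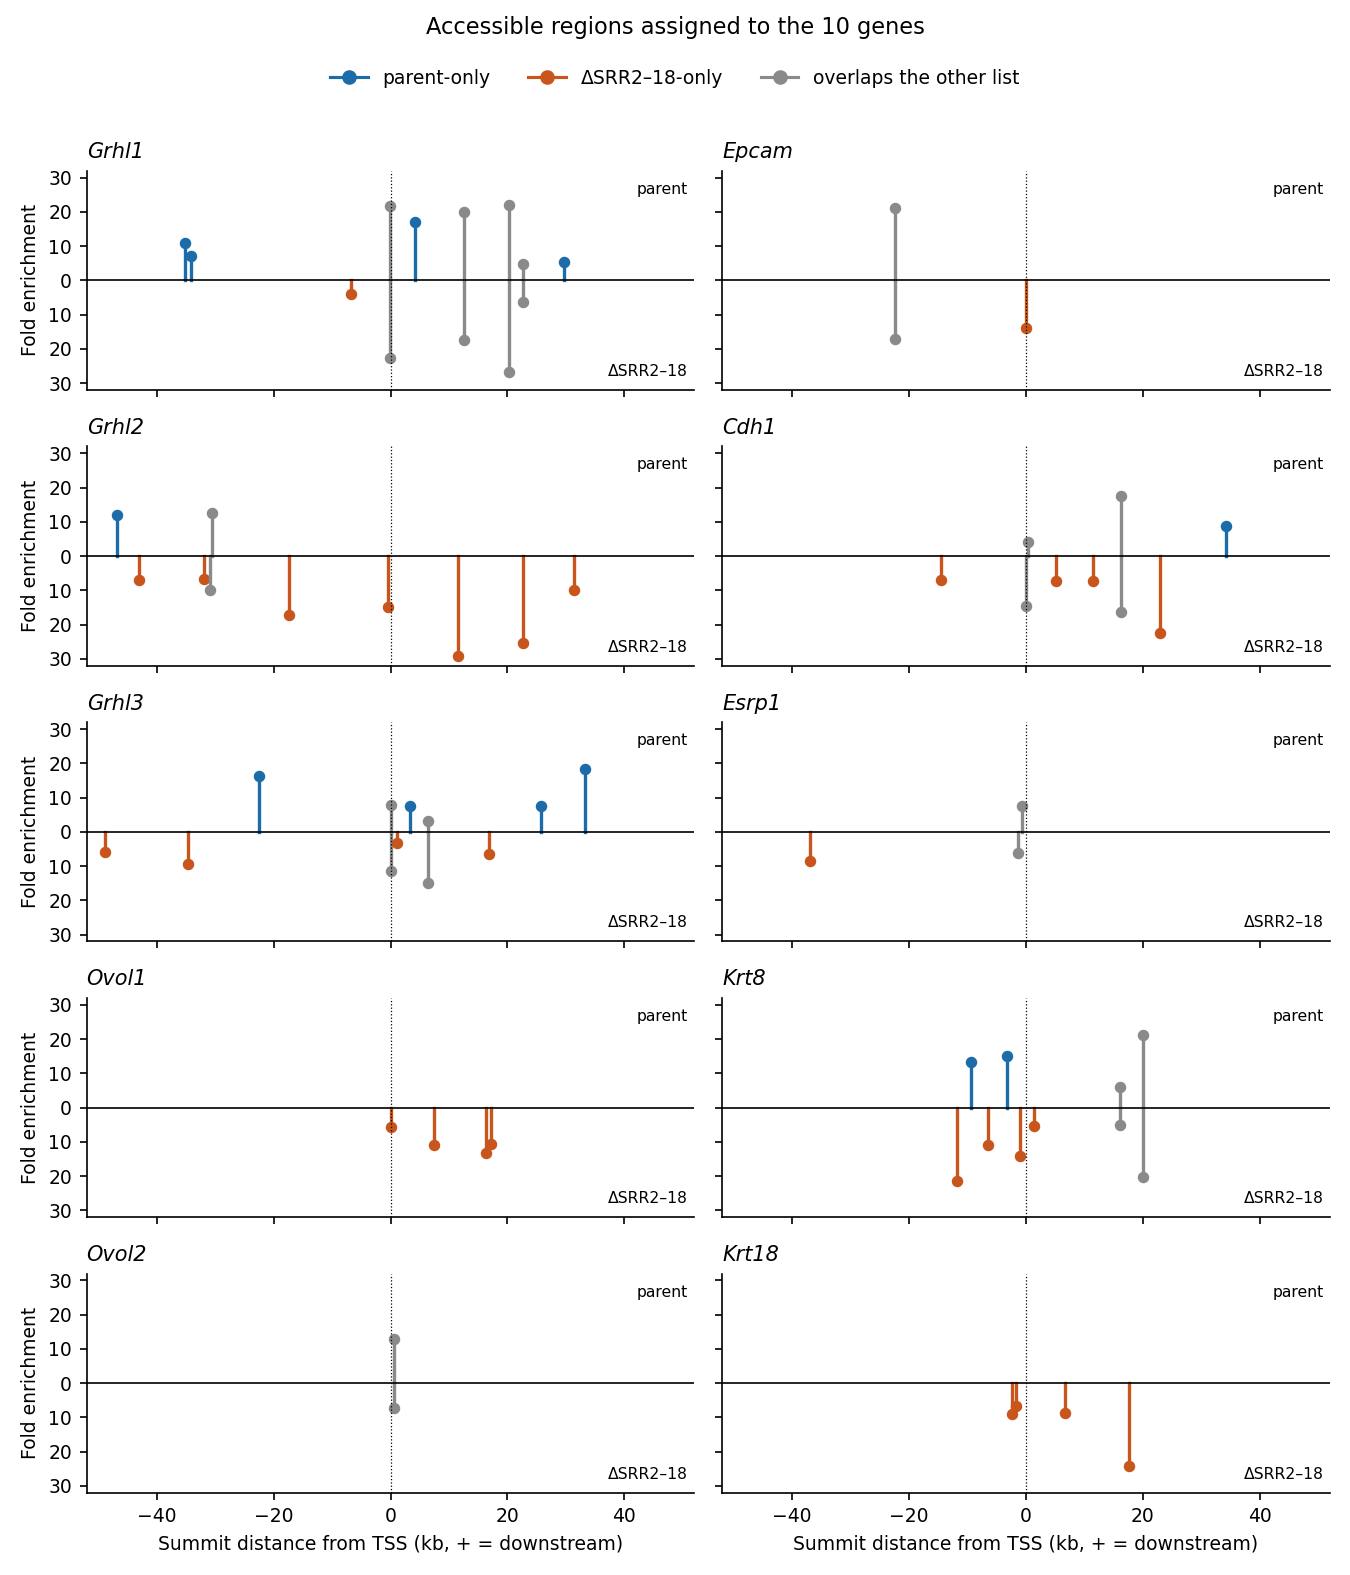
Each panel shows the regions of 1 gene by distance of the summit from the TSS (kb, positive in the direction of transcription). Fold enrichment is drawn upward for the parent list and downward for the ΔSRR2–18 list, in blue for parent-only, orange for ΔSRR2–18-only and grey for regions that overlap the other list; *Ovol1* and *Krt18* have orange stems only, and *Grhl2* has 7 orange stems and 1 blue.

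The *OVOL* genes, which encode zinc finger repressors of the mesenchymal state, differed from each other. *Ovol1* (chr19:5549136-5560646, minus strand) had no region in the conservative parent list and 4 in the ΔSRR2–18 list. The strongest lay 16414 bp downstream of the TSS (fold enrichment 13.2, 272 reads), and the region 7366 bp downstream, in an intron (10.9, 225 reads), and that 17103 bp downstream (10.6, 219 reads) each held an AP-1 consensus within 100 bp of the summit. The *Ovol1* TSS region was weak (fold enrichment 5.68, 137 reads, top 90.9% by reads), and the longer optimal parent list, held an overlapping region with a fold enrichment of 5.25 (208 reads). Relative to background its level was 5.35 in that parent list and 6.97 in ΔSRR2–18 NSPCs. *Ovol2* (chr2:144305175-144332146, minus strand) had a single region, shared and in a coding exon near its TSS, and here the parent value was the higher: 763 reads (level 19.6, top 46.3% by reads) against 214 reads (level 10.9, top 72.4%).

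The adhesion genes differed between the lists at their TSS, and *Cdh1* also elsewhere. *Cdh1* (chr8:106603351-106670246, plus strand), which encodes E-cadherin, had 3 parent and 6 ΔSRR2–18 regions. Its TSS region was near the foot of the parent list by reads, at top 98.7% with 158 reads (level 4.07, fold enrichment 3.99), and stood at top 46.5% in the ΔSRR2–18 list with 384 reads (level 19.5, fold enrichment 14.5), a ratio of levels of 4.80. The summit was 316 bp downstream of the TSS in parent NSPCs, in an intron, and 56 bp downstream, in the UTR, in ΔSRR2–18 NSPCs, and each summit had a ZEB/SNAI E-box within 100 bp, as printed above. Inside the gene, an intronic region 22916 bp downstream of the TSS was found in the ΔSRR2–18 list alone with 1185 reads (fold enrichment 22.6, top 11.7% by reads). The 3 other ΔSRR2–18-only regions of *Cdh1* had fold enrichments between 6.87 and 7.27, and the one 11528 bp downstream carries the AP-1 site shown. The weakest of them by fold enrichment lay 14439 bp upstream of the TSS. An intronic region 16273 bp downstream was strong in both lists (1549 parent reads and 1216 ΔSRR2–18 reads, levels 39.9 and 61.9). The 1 parent-only region of *Cdh1*, 34198 bp downstream, had 394 reads.

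*Epcam* (chr17:87635979-87651129, plus strand), which encodes an epithelial surface adhesion protein, had a region over the second of its 2 TSS in the ΔSRR2–18 list alone. It spanned 1286 bp with 80.1% G and C within 100 bp of its summit, and it had a fold enrichment of 13.8 with 329 reads (top 53.0% by reads). Neither parent list held a region there. The other *Epcam* region, 22455 bp upstream, was shared, with levels of 26.6 and 35.7 in parent and ΔSRR2–18 NSPCs. *Esrp1* (chr4:11331933-11386783, minus strand), an epithelial splicing regulator, had a shared region upstream of its TSS with levels of 10.1 and 11.4, whose strongest summit was 607 bp from the TSS in parent and 1336 bp in ΔSRR2–18 NSPCs. A ΔSRR2–18-only region 36964 bp upstream of *Esrp1* had a fold enrichment of 8.42 (173 reads) and an AP-1 site.

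*Krt8* (chr15:101996698-102004482, minus strand) and *Krt18* (chr15:102028180-102032027, plus strand) encode the paired keratins of simple epithelia and are neighbours, so their regions share a locus. Neither TSS was covered by a region in any of the 4 lists. *Krt18* had 4 regions, all ΔSRR2–18-only, and the strongest, 17693 bp downstream, had 2327 reads, a level of 118 (fold enrichment 24.1, top 2.11% by reads). Next to it in strength among all ΔSRR2–18-only regions of the 10 genes by reads was the *Krt8* region 11783 bp upstream, which lies between the keratin genes, with 1864 reads (level 94.8, fold enrichment 21.6, top 4.23%). The *Krt8* region nearest to its TSS in the ΔSRR2–18 list, 1014 bp upstream, had 848 reads (fold enrichment 14.2) and a pair of AP-1 sites. All of these had no counterpart in the parent list, where *Krt8* had regions of its own 3237 bp (871 reads, fold enrichment 15.0) and 9305 bp upstream (598 reads, 13.2) that the ΔSRR2–18 list lacked. The keratin locus therefore held different regions in the lists between the same genes, and the regions shared by both lists lay 16160 and 20074 bp downstream of the *Krt8* TSS. At the latter the level was 66.7 in parent and 82.6 in ΔSRR2–18 NSPCs.

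A TSS base was covered by a region in both lists for *Grhl1*, *Grhl3*, *Ovol2* and *Cdh1*, in the ΔSRR2–18 list alone for *Grhl2*, *Ovol1* and *Epcam*, and in neither for *Esrp1*, *Krt8* and *Krt18*. The 3 of 10 members covered in ΔSRR2–18 NSPCs alone compare with 5.33% of the 21924 protein-coding genes, and the 0 of 10 covered in parent NSPCs alone with 2.41%. Both lists covered 56.0% of all protein-coding genes and 40.0% of the members. A smaller share of all genes was therefore left to be covered in 1 list alone, which widens the contrast. With the optimal lists the first count was 2, since *Ovol1* was then covered in both.

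At the 14 loci with a region in both lists, summit reads placed 9 loci higher in the ΔSRR2–18 list than in the parent list (64.3%, against 47.2% of all 39072 shared loci). By fold enrichment 6 loci were higher in the ΔSRR2–18 list (42.9%, against 42.9%), and by −log10 p 8 (57.1%, against 45.6%), so the order depended on the measure. The median ratio of ΔSRR2–18 to parent level was 1.18 for the 14 loci and 0.848 for all shared loci. The *Grhl3* intron, the *Cdh1* TSS and the *Grhl3* TSS had the highest ratios (11.7, 4.80 and 2.08), and all 3 were higher in the ΔSRR2–18 list by each of the measures. *Grhl1* at 12583 bp downstream of its second TSS and the *Ovol2* TSS had the lowest (0.440 and 0.554) and were higher in the parent list by each of the measures.

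**Figure D3:**
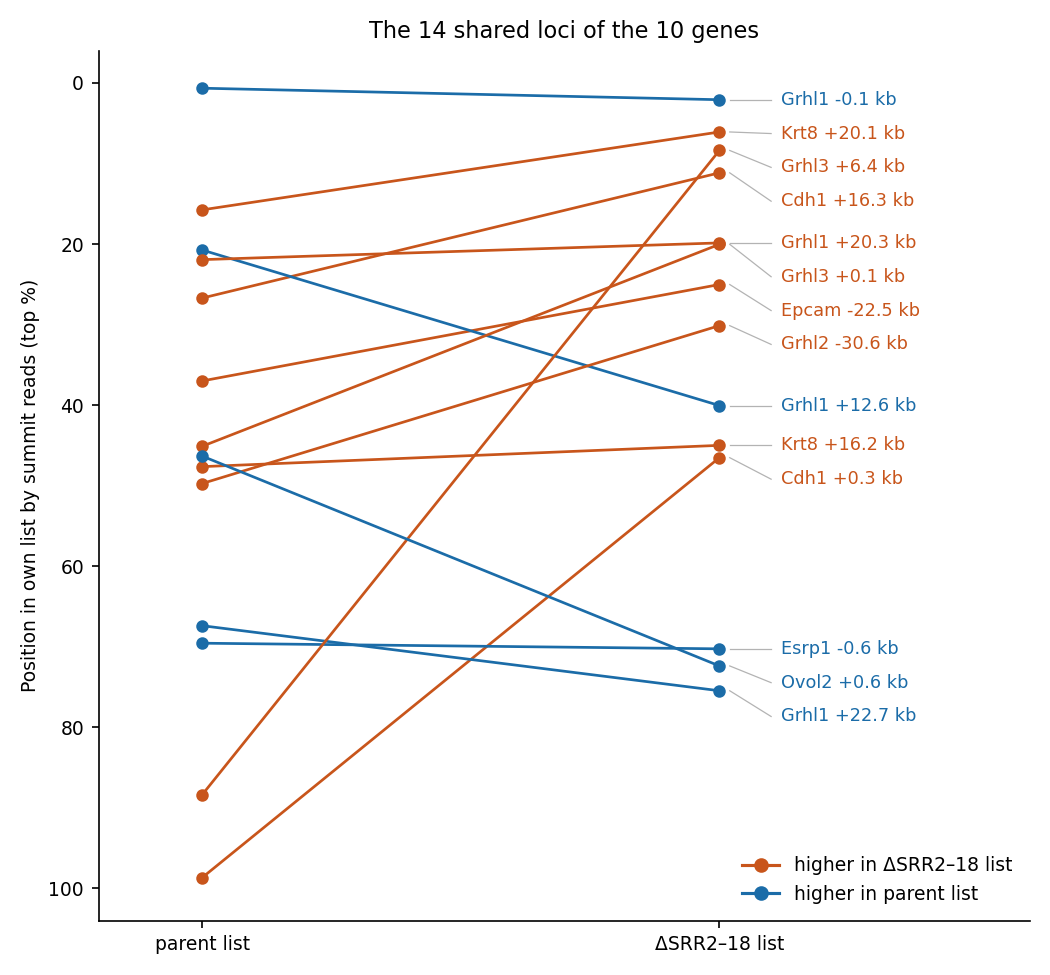
Position of the 14 shared loci in the parent list (left) and the ΔSRR2–18 list (right) by summit reads, where 0% is the highest region of the list; labels give the gene and the parent summit's distance from the TSS, positive downstream. The 9 orange lines are higher in the ΔSRR2–18 list, with the *Grhl3* intron moving from 88.4% to 8.38% and the *Cdh1* TSS from 98.7% to 46.5%, and the 5 blue lines are higher in the parent list.

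AP-1 sites were found at 13 of the 30 ΔSRR2–18-only regions within 100 bp of the summit (43.3%, exact 95% interval 25.5–62.6%) and at 0 of the 12 parent-only regions, which allows a share of up to 25.0%. All ΔSRR2–18-only regions of the genome had a share of 41.6% and all parent-only regions 2.55%, so the members were near the background of their class. Matches at members were close to the summit, with a median distance of 29 bp, and no ΔSRR2–18-only member had a match in the window 500 bp away. The 13 regions belonged to *Grhl2* (3), *Krt8* (3), *Grhl3* (2), *Ovol1* (2), *Cdh1* (1), *Esrp1* (1) and *Krt18* (1). *Grhl1*, *Ovol2* and *Epcam* had no AP-1 site within 100 bp of the summit of any region.

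The motif of the GRHL factors themselves, AACNGGTT, occurred near the summit of 0 of the 70 regions, against 1.11% of all regions. A count of 0 in 70 allows a share of up to 4.29%, so the members cannot be told apart from that background. Over the whole width of the regions AACNGGTT occurred in 2 (2.86%, against 4.41%), the *Ovol1* TSS region and the weak *Grhl3* region 48810 bp upstream. Both were ΔSRR2–18-only and held the consensus AACCGGTT, which 0.274% of all regions held. The ZEB/SNAI E-box CAGGTG occurred near the summit of 6 of the 30 ΔSRR2–18-only regions (20.0%, exact 95% interval 7.71–38.6%), against 6.73% of all ΔSRR2–18-only regions. The window 500 bp from the summit held it in 23.3% of the same member regions, against 12.3%, so the E-box was not concentrated at the summits, and the members were richer in G and C (53.3% against 46.1%). A match was counted on either strand, and matches of different consensus sequences can share bases, as CACCTG and TGACTCA do in the *Krt8* sequence from 11783 bp upstream printed above. The TEAD consensus GGAATG occurred at 9 of the 30 (30.0%, against 24.2%). Of the 10 genes, 6 had a promoter in the RefSeq promoter table (GRCm38.p6), and CAGGTG was found in those of *Grhl3*, *Epcam*, *Krt8* and *Krt18*, against 20.2% of 32851 promoters of the same length. AACNGGTT and TGACTCA were found in none of the 6 genes' promoters, against 2.09% and 5.20% of all. *Grhl2*, *Ovol1*, *Cdh1* and *Esrp1* were not matched.

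**Figure D4:**
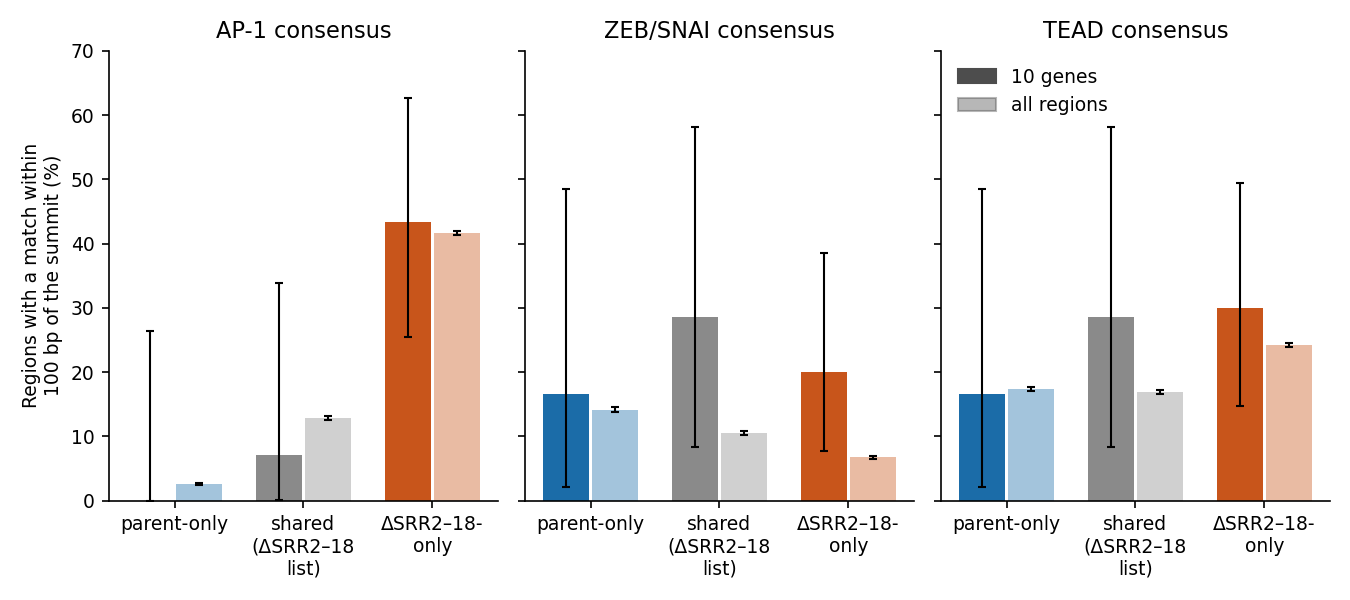
Percentage of regions with an exact match to the AP-1, ZEB/SNAI or TEAD consensus within 100 bp of the summit, for the regions of the 10 genes (solid) and all regions (pale) in the parent-only, shared (ΔSRR2–18 list) and ΔSRR2–18-only classes; bars are shares and error bars exact 95% binomial intervals. The AP-1 share was 43.3% at ΔSRR2–18-only member regions and 41.6% at all such regions.

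A further 46 genes of epithelial junctions, keratins, proteases and transcription factors were examined by the same rule. They had 118 parent regions, 49 of them parent-only (41.5%), and 170 ΔSRR2–18 regions, 99 of them ΔSRR2–18-only (58.2%), shares close to the 45.0% and 53.0% of all regions near coding genes. In 25 of the 46 genes ΔSRR2–18-only regions were the more numerous (54.3%, against 36.3% of all protein-coding genes). In 10 parent-only regions were (21.7%, against 21.9%), and 11 were equal, 5 of these genes having no region at all. Genes without a region can show neither balance, and 4281 of the 21924 protein-coding genes had none. The lists differed more at the TSS. A TSS base was covered in the ΔSRR2–18 list alone for 13 genes (28.3%, against 5.33% of all genes). In the parent list alone it was covered for 2 (4.35%, against 2.41%), *Itgb6* and *Crb3*, the latter by a region with its summit nearer to another gene. Both lists covered 26.1% of these genes and 56.0% of all genes, which widens both contrasts. The 13 included the tight junction genes *Cldn3*, *Cldn4*, *Marveld2* and *F11r*, the keratin gene *Krt19*, the P-cadherin gene *Cdh3*, the splicing regulator gene *Esrp2*, the transcription factor gene *Tfap2c*, the integrin gene *Itgb4*, and *St14* and *Spint2*, which encode the protease matriptase and an inhibitor of it. With the optimal lists the count was 11, since *Krt19* was then covered in neither list and *Spint2* in both.

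Genes of this list with many genotype-specific regions differed in direction. *Cdcp1*, which encodes a transmembrane protein of epithelial cells, had 1 parent-only and 6 ΔSRR2–18-only regions. *Trp63*, which encodes the basal epithelial factor p63, had 2 and 6, and *Itgb6*, an epithelial integrin gene, had 4 and 9. *Dsp*, which encodes the desmosomal protein desmoplakin, had 2 and 4. *Ehf*, an epithelial ETS factor gene, had 5 parent-only and 2 ΔSRR2–18-only regions, and *Ddr1* had 3 and 2. *Cdh3*, which lies beside *Cdh1*, had 0 and 6, out of 1 parent and 7 ΔSRR2–18 regions. At *Cdh1* the numbers were 1 and 4, out of 3 and 6. Of all regions near coding genes, 45.0% of parent and 53.0% of ΔSRR2–18 regions were specific. *Cldn6*, *Cldn7*, *Crb3*, *Krt14* and *Lsr* had no region assigned in either list, and *Epn3* and *Spint1* had shared regions only.

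The genes of the repressors that oppose this program had accessible chromatin in both lists. *Zeb1* had 2 parent-only and 5 ΔSRR2–18-only regions, *Zeb2* had 5 and 7, *Snai1* had 2 and 5, and *Snai2* had 0 and 1. A TSS of each of the 4 was covered in both lists. At *Zeb1*, however, 0 assigned parent regions had their strongest summit within 1 kb of a TSS, against 1 in ΔSRR2–18 NSPCs. Over the 4 genes, 18 of 31 ΔSRR2–18 regions and 9 of 22 parent regions were specific (58.1% and 40.9%), shares near the 53.0% and 45.0% of all regions near coding genes.

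The limit of 50 kb set which regions were counted. The farthest regions inside it were 46739 bp from *Grhl2* (parent) and 48810 bp from *Grhl3* (ΔSRR2–18). The nearest outside were both at *Epcam*, 64224 bp away in the parent list (fold enrichment 19.9) and 64283 bp away in the ΔSRR2–18 list (19.5), and in all 11 parent and 5 ΔSRR2–18 regions with a member as the nearest gene lay beyond it.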

How the data were processed

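Accessible chromatin was measured by ATAC-seq in 3 parent and 3 ΔSRR2–18 NSPC cultures, and groups were taken from the labels. In the authors' hands, reads went through the ENCODE pipeline for ATAC-seq on mm10, with peaks from MACS2 that were filtered per genotype by IDR, a measure of reproducibility. Each deposited list gives an IDR score, a fold enrichment (a ratio to local background) and a −log10 p per peak. Reads from the *M. castaneus* allele can map less often to mm10, and the lists do not separate alleles. The depth of single cultures is not in the lists.

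Each distinct interval took its strongest summit, and the nearest TSS among GENCODE basic transcripts of protein-coding genes. Summit reads were solved from the deposited fold and −log10 p, and 99.9993% and 100% of parent and ΔSRR2–18 peaks gave whole numbers (within 0.05). Lists shared a region at an overlap of 1 bp. Motifs were exact matches on either strand in the RefSeq GRCm38.p6 genome. The steps were tested on simulated data. Shares have exact (Clopper-Pearson) 95% intervals that cover counting error only, and a count of 0 allows up to 3 counts.

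Members, gene lists and motifs were chosen with earlier results of these data known. All 10 members are named with every class of region, and of the 46 further genes the 8 with the most genotype-specific regions (1 of them is not reported here) and those with none; genes at whose TSS only 1 list had a region, and the comparison of TSS coverage, were added after values were seen. The effect of the optimal lists, a stricter IDR score, other overlaps, distance limits, depth and list-length matching and motif windows is given at the end. Python 3.11.15, pandas 2.3.3, numpy 2.4.6, scipy 1.17.1 and matplotlib 3.10.9 were used.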

Additional observations from a re-analysis of the deposited data

Results flagged for a closer look

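The TSS of *Ovol1*, without a region in the conservative parent list, had a region in the longer parent list that the comparisons do not use. It spanned chr19:5559830-5561313 with its summit 34 bp downstream of the TSS, a fold enrichment of 5.25 and 208 summit reads, above the peak caller's background, and it overlapped the weak ΔSRR2–18 region counted as specific to that list.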

How the results depend on the processing

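No paired analysis was possible because the lists pool the 3 cultures of each genotype, and for the same reason no culture could be left out. Of 52 values recomputed under another setting, 45 stayed within 1.5 times the count or within the exact interval of the share. With a 10 kb limit, parent-only regions numbered 4 and ΔSRR2–18-only regions 13 for the 10 genes, and 28 and 56 for the further epithelial genes. For the further genes no share was computed at this limit, so their counts cannot be set against all genes. With a 100 kb limit, 19 parent-only member regions were found. In the flank 500 bp from the summit, AP-1 was found in 0% of ΔSRR2–18-only member regions, and with the optimal lists 1 further epithelial gene had a TSS covered in the parent list alone. The last comparison and the search of whole regions for the GRHL motif were chosen after seeing the data. Trimming the lists to equal length gave 15 parent-only and 24 ΔSRR2–18-only member regions by fold enrichment and 13 and 21 by −log10 p. By fold enrichment these were 57.7% and 68.6% of the member regions, against 54.0% and 49.0% over all genes. By −log10 p they were 50.0% and 61.8%, against 51.4% and 47.9%. A minimum −log10 p of 20, applied after parent reads had been scaled down to the depth of the other list, removed no member region, since the lowest scaled value of a parent member was 24.4, and so shows nothing about depth. With 0 AP-1 sites in 12 parent-only regions, a share of up to 25.0% cannot be told apart from none at this number.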
